A study of Zea mays with 6 samples.

Results

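The 3 phosphate transport genes described here are the phosphate transporter gene PHT1-7 (GRMZM2G112377) and a pair of genes named PHO1-H1 (GRMZM5G891944 and GRMZM2G064657). They were taken by gene identifier from the array of 39219 genes, with all their transcripts. The study reported these genes as up-regulated by iron deficiency from the same samples, so their values are no independent evidence of a direction. They hold 4 of the 59756 transcripts and 10 of the 139000 transcript probes of the array. PHT1-7 and GRMZM2G064657 have 1 transcript each with 3 probes, and GRMZM5G891944 has 2 transcripts with 2 probes each.

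Total RNA of maize roots (Zea mays, labelled hybrid cv. PR33T56) was hybridised to 6 single-colour NimbleGen arrays, 3 labelled Fe-deficient and 3 labelled Fe-sufficient. All plants were kept for 7 d without iron from the transfer of the seedlings to nutrient solution until they were 12 d old. The Fe-deficient plants then stayed without iron for another 7 d, while the Fe-sufficient plants received 100 µM Fe-EDTA over the same 7 d and so had also been deprived before. Both solutions contained 175 µM KH2PO4, and no group with another phosphate supply was measured. Each array held the pooled roots of 6 plants aged 19 d. The study repeated the collection in 3 independent cultivations, and the labels do not name the cultivation of each array. Levels are log2 intensities, and a fold change is Fe-deficient over Fe-sufficient. Calls required a change of 1.5-fold or more in either direction together with an adjusted p no higher than 0.05. As RNA came from whole roots, fewer cells of a type and less RNA per cell cannot be told apart.

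Plants take up phosphorus as inorganic phosphate. Transporters of the PHT1 family carry phosphate with protons across the plasma membrane, many of them in the outer cells and hairs of the root. PHO1 proteins act at a later step: in Arabidopsis, PHO1 exports phosphate from cells around the vascular tissue into the xylem, from where it reaches the shoot. Iron binds phosphate in soil and in tissues, and the study asked whether iron deprivation also alters genes of phosphate transport.

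The arrays were checked before the members were compared. Of 12 root marker symbols 6 were found, and all 6 were above background on all arrays. Of 14 leaf marker symbols 9 were found, of which 6 were above background on all arrays, and ssu1, pep1 and rca1 were not. The 6 include cab48, which counted through at least 1 probe, while its summarised level, 6.73 to 7.20, lay below background on every array. The percentile of the level among all genes ran from 60.6 to 97.4 for the root markers (median 83.7). For the leaf markers it ran from 2.3 to 99.2 (median 38.0), so some leaf markers were bright. The mean log2 level of the leaf markers ran from 9.2 to 9.33 on the Fe-deficient and from 9.26 to 9.31 on the Fe-sufficient arrays. That of the root markers ran from 11.87 to 12.39 and from 11.62 to 12.62. Single markers varied more, and after their values were seen 2 were picked out. The root marker nas2 was at 8.90 on Fe-sufficient 1 and at 11.82 or more on the other arrays. The leaf marker lhcb3 was at 13.31 on Fe-sufficient 3 and at 11.24 or less on the others. The study reports YS1 and a nicotianamine synthase gene, the family of nas2, as raised by iron deficiency. The root markers ys1 and nas2 may therefore respond to the treatment themselves. The genes also assayed by PCR, PHT1-7 among them, served as a check of the labels. In limma 0 of these 6 were called on the arrays (background 0.079% of the brightest transcripts of all genes). Of the same 6, 0 had an unadjusted p up to 0.05, and so 0 passed with the fold limit kept (background 4.84%). Those named here, TOM1, YS1, NRAMP1 and Ferritin, were chosen after their values were seen. TOM1 encodes an exporter of iron-binding phytosiderophores and had log2 levels of 12.61, 11.14 and 12.59 on the Fe-deficient arrays and 8.49, 13.51 and 12.52 on the Fe-sufficient arrays. Fe-sufficient 1 was thus the only array with a low TOM1 level, while Fe-sufficient 2 and 3 lay within or above the range of the Fe-deficient arrays. The iron storage gene Ferritin was at 13.96 on Fe-sufficient 1 and between 13.22 and 13.27 on the other arrays. That array also had the low nas2 level given above. Groups did not overlap for 2 of the 6 (background 17.3% of the brightest transcripts of all genes), YS1 and NRAMP1, at log2 differences of -0.47 and -0.50, with lower levels on every Fe-deficient array. In the study's PCR, TOM1, YS1, NRAMP1 and PHT1-7 were all higher in Fe-deficient roots, and Ferritin was higher in Fe-sufficient roots. YS1 and NRAMP1 thus had the opposite direction on the arrays as labelled. Whether the labels match the treatments was not tested beyond the 6 PCR genes. Group names below are therefore those of the labels, and the member transcripts are also compared with single arrays left out. The Fe-sufficient arrays lay at positions 7 to 9 and the Fe-deficient arrays at positions 10 to 12 of 1 slide, so position and group cannot be told apart.

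None of the 4 member transcripts was called (0 of 4, against 0.0853% of all transcripts, 0.0703% higher and 0.0151% lower). All 4 transcripts had overlapping groups, whereas groups did not overlap for 17.4% of all transcripts (9.75% higher and 7.65% lower). A missed threshold does not show that levels were alike. The 3 transcripts of the PHO1-H1 genes had lower mean levels in the Fe-deficient roots, and PHT1-7 differed least. A difference below 0 was found for 47.9% of all transcripts. When the p was left unadjusted and the fold limit kept, 1 of the 4 passed, with a lower level (a transcript of GRMZM5G891944), against 5.34% of all transcripts in either direction and 2.8% lower.

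PHT1-7 belongs to the family of phosphate importers. Its transcript (GRMZM2G112377_T01) had log2 levels of 10.23, 10.03 and 9.94 on Fe-deficient 1, 2 and 3. On Fe-sufficient 1, 2 and 3 the levels were 9.70, 10.56 and 9.76. Fe-sufficient 2 was the highest of the 6 arrays, and the other Fe-sufficient arrays were the lowest, so the Fe-deficient levels lay inside the Fe-sufficient range. The group means were 10.07 ± 0.15 and 10.01 ± 0.48 (SD, n = 3 in each group), with a fold change of 1.04 (95% interval 0.69 to 1.57; limma adjusted p = 0.945). The interval holds changes of up to 1.57-fold in 1 direction and down to 0.69 in the other, and the sources of the spread were not tested.

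**Figure D1:**
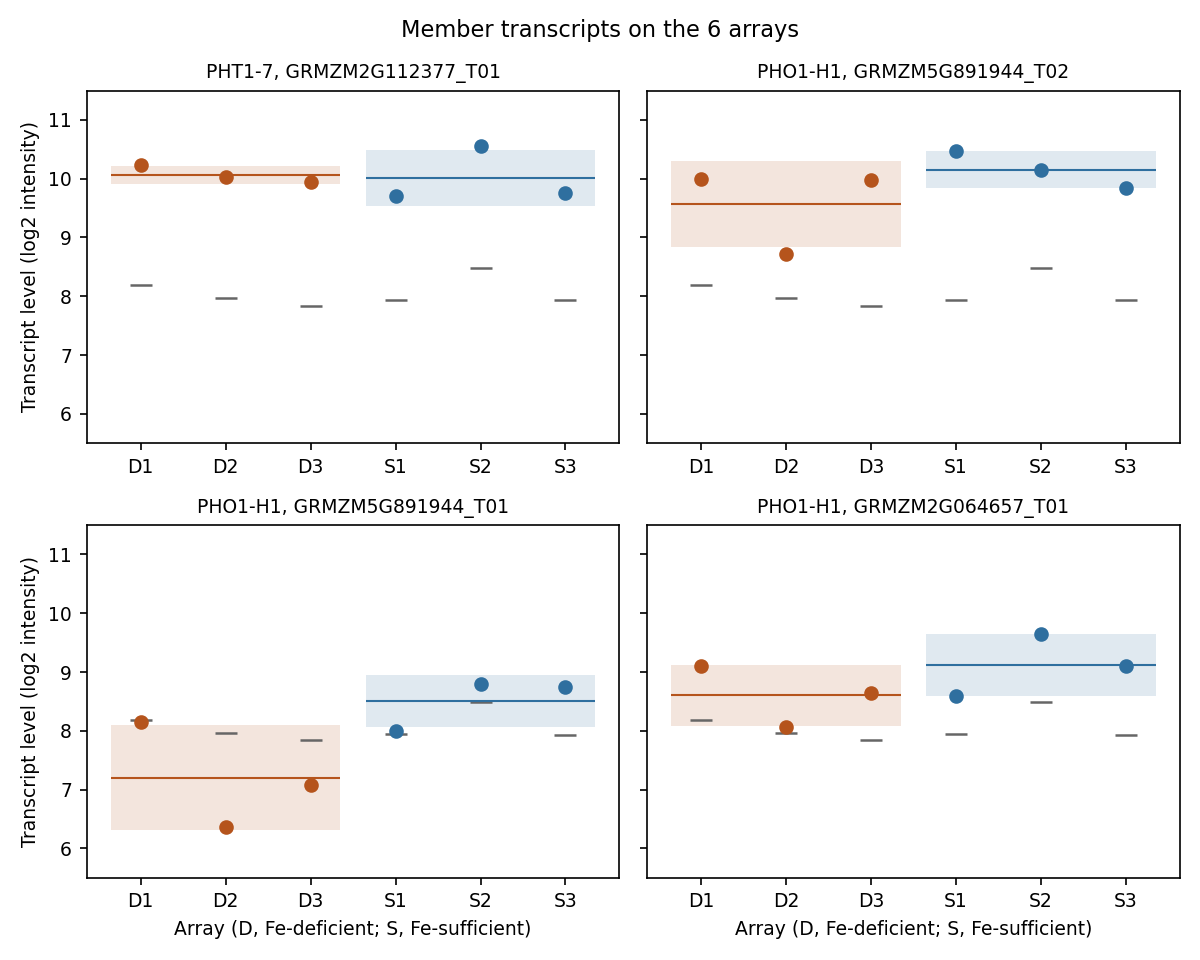
Log2 level of each member transcript (y axis) on the 6 arrays (x axis; D, Fe-deficient 1 to 3; S, Fe-sufficient 1 to 3). Points are arrays, lines and shaded bands are group means ± SD (n = 3), and grey dashes mark each array's background, the 95th percentile of its random-sequence probes. The groups overlap in all 4 panels, and GRMZM5G891944_T01 is the transcript nearest to background.

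The probes of PHT1-7 were not all above background. Probes are named by the base of the transcript at which they start, as the files give it. The probe at base 799 had mean log2 intensities of 10.90 ± 0.33 in Fe-deficient and 11.20 ± 0.43 in Fe-sufficient roots (SD, n = 3; fold change 0.813, limma adjusted p = 0.712). The probe at base 1771 had 9.92 ± 0.47 and 9.97 ± 0.60 (fold change 0.968, limma adjusted p = 0.971). Both were above background on all 6 arrays. The probe at base 2048, the last of the 3, lay between 5.45 and 5.93, below background on every array. Its log2 difference of 0.13 was the only one of the 3 above 0. With that probe left out, a setting chosen after the data were seen, the log2 difference of PHT1-7 was -0.17 (95% interval -0.85 to 0.51; limma adjusted p = 0.817) in place of 0.06. The log2 difference was also below 0 with the mean of all 3 probes (-0.073). With all 3 probes in the median polish it was below 0 without Fe-deficient 1, Fe-sufficient 1 or Fe-sufficient 3. Over the 6 arrays the bright probes at bases 799 and 1771 correlated at a Pearson r of 0.44, the lowest value for a pair of probes above background on all arrays within a member transcript.

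**Figure D2:**
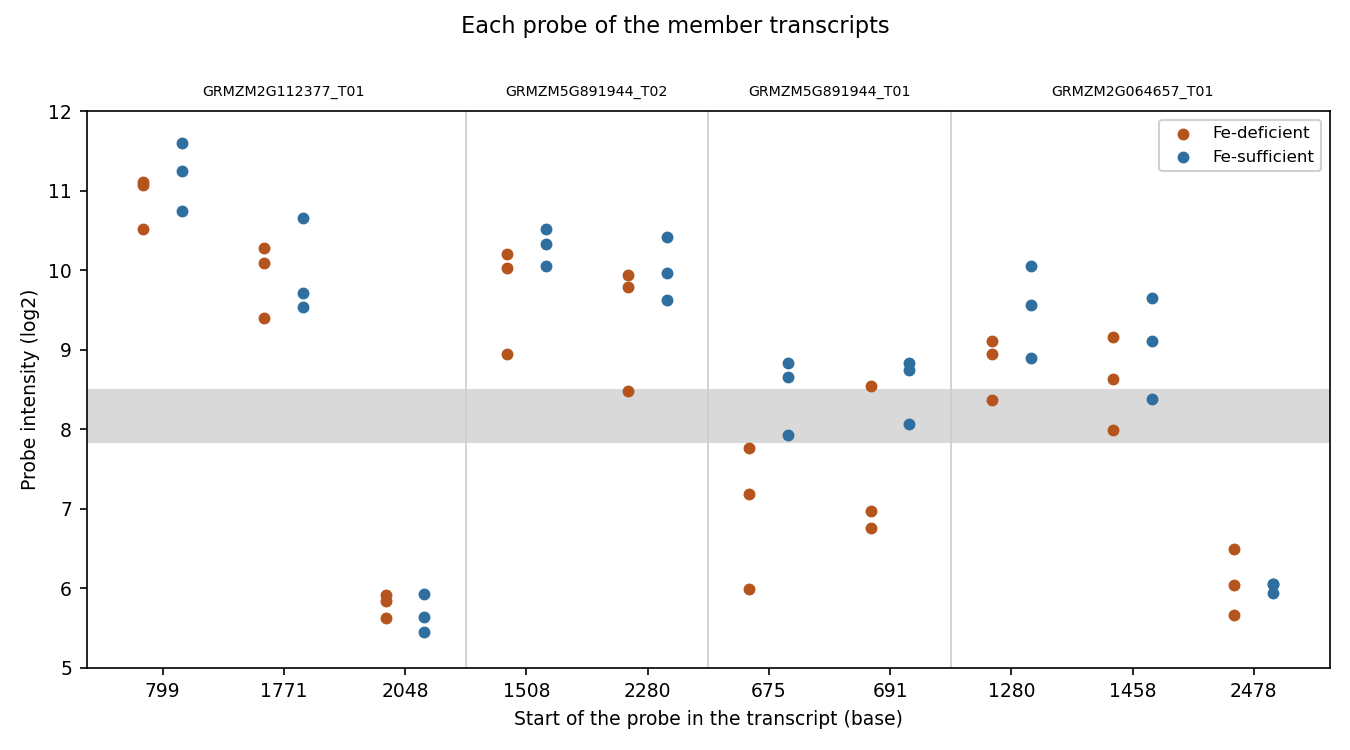
Log2 intensity (y axis) of each of the 10 member probes on the 6 arrays, by the base of the transcript at which the probe starts (x axis). Orange points are the 3 Fe-deficient and blue points the 3 Fe-sufficient arrays, and the grey band spans the background of the 6 arrays, 7.84 to 8.49. The last probes of PHT1-7 and GRMZM2G064657 lie below the band on every array.

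GRMZM5G891944 is a gene named for the PHO1 family of phosphate exporters and was the only member with more than 1 transcript on the array. Its brighter transcript (T02) had log2 levels of 9.999, 8.72 and 9.98 on Fe-deficient 1, 2 and 3. The levels on Fe-sufficient 1, 2 and 3 were 10.47, 10.16 and 9.84. Fe-deficient 2 stood apart from the other 5 arrays, which lay within 0.63 of each other, and the groups overlapped. The group means were 9.57 ± 0.74 and 10.16 ± 0.31 (SD, n = 3), with a fold change of 0.664 (95% interval 0.362 to 1.22; limma adjusted p = 0.579). Both probes of T02, at bases 1508 and 2280, were above background on all arrays. Their log2 differences were -0.58 and -0.60, and they varied together over the arrays (Pearson r = 0.97 over 6 arrays). Their differences were 0.03 apart, against a median of 0.26 over the 40256 transcripts with 2 probes.

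The dimmer transcript of GRMZM5G891944 (T01) had the largest difference of the 4. Its log2 levels were 8.15, 6.37 and 7.08 on Fe-deficient 1, 2 and 3, and 8.00, 8.79 and 8.74 on Fe-sufficient 1, 2 and 3. Fe-deficient 1 was above Fe-sufficient 1, and all other Fe-deficient levels were below all Fe-sufficient levels. The group means were 7.20 ± 0.90 and 8.51 ± 0.44 (SD, n = 3), a fitted level 2.48-fold lower in Fe-deficient roots (95% interval 1.18 to 5.22) that includes 2 Fe-deficient arrays on which T01 was below background. This difference had an unadjusted p of 0.0236 in limma and was not called (limma adjusted p = 0.462). Of all transcripts, 5.1% had a smaller unadjusted p. T01 was above background on all 3 Fe-sufficient arrays but on only 1 of 3 Fe-deficient arrays (Fe-deficient 1). On Fe-deficient 1 it counted through the probe at base 691, at 8.55. Its summarised level there, 8.15, was just below the background of that array, 8.18.

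Both probes of T01 lie close together, at bases 675 and 691. At base 675 the log2 intensities were 7.76, 5.99 and 7.19 on the Fe-deficient arrays and 7.93, 8.84 and 8.65 on the Fe-sufficient arrays. This was the only 1 of the 10 member probes whose groups did not overlap, against 16.9% of all probes in either direction and 7.6% lower. It was below background on all 3 Fe-deficient arrays and above it on 2 of 3 Fe-sufficient arrays (limma adjusted p = 0.448). The mean of the Fe-sufficient arrays was 1.39-fold above the lowest probe signal above background on the Fe-deficient arrays. As Fe-sufficient 1 was itself below background, this value is no firm lower limit of the difference. It also takes no account of the spread between arrays. At base 691 the group means were 7.42 ± 0.98 and 8.55 ± 0.42 (SD, n = 3; limma adjusted p = 0.506). No member probe was called (0 of 10, against 0.0518% of all probes). Without adjustment of the p 1 of the 10 passed, the probe at base 675, against 7.43% of all probes, and 8 of the 10 had a difference below 0, against 48.1% of all probes. Probes of a gene share its RNA and are not replicates.

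The bright and the dim transcript of GRMZM5G891944 were compared within each array, so that only the change of their gap between groups is read. T02 exceeded T01 by 1.85, 2.34 and 2.90 in log2 on Fe-deficient 1, 2 and 3. The gap was 2.47, 1.36 and 1.10 on Fe-sufficient 1, 2 and 3. Fe-sufficient 1 had the second widest gap of the 6 arrays, inside the Fe-deficient range. The mean gap was 2.36 ± 0.53 in Fe-deficient and 1.64 ± 0.73 in Fe-sufficient roots (SD, n = 3), a difference of 0.72 (exact permutation test, two-sided, p = 0.3). With 3 arrays against 3 this test cannot give a p below 0.1. Without Fe-sufficient 1 the difference of the gaps was 1.13, and without Fe-deficient 3 or Fe-sufficient 3 it was 0.45. T01 was not above background on Fe-deficient 2 and 3, so the gap on these arrays is limited by what the dim probes can show.

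GRMZM2G064657, the other gene named PHO1-H1, had log2 levels of 9.10, 8.07 and 8.64 on Fe-deficient 1, 2 and 3. On Fe-sufficient 1, 2 and 3 the levels were 8.60, 9.65 and 9.11. Fe-deficient 2 was again the lowest array and Fe-sufficient 2 the highest, with the remaining arrays mixed between them. The group means were 8.60 ± 0.52 and 9.12 ± 0.53 (SD, n = 3), with a fold change of 0.699 (95% interval 0.398 to 1.23; limma adjusted p = 0.597). The probes at bases 1280 and 1458 were above background on all arrays, with log2 differences of -0.70 and -0.45 (limma adjusted p = 0.531 and 0.704), and correlated at a Pearson r of 0.94. The third probe, at base 2478, lay between 5.66 and 6.50, was above background on no array and had a difference of 0.05. Without it the log2 difference of the transcript was -0.57 (limma adjusted p = 0.566).

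The member transcripts varied together to different degrees. Over the 6 arrays GRMZM2G064657_T01 and GRMZM5G891944_T01 correlated at a Pearson r of 0.90, although they belong to different genes, and the latter was near background. GRMZM2G064657_T01 and GRMZM5G891944_T02 correlated at 0.60. The transcripts of GRMZM5G891944 correlated with each other at 0.69. PHT1-7 correlated with GRMZM2G064657_T01 at 0.59, with GRMZM5G891944_T01 at 0.23 and with GRMZM5G891944_T02 at -0.02. These are descriptions of 6 arrays, which share slide and normalization. All 3 PHO1-H1 transcripts had their lowest level on Fe-deficient 2, the array with the lowest mean correlation with the other arrays (0.956, against 0.959 to 0.973). The pooled SD within groups was 0.35 for PHT1-7 and between 0.52 and 0.71 for the PHO1-H1 transcripts, against a median of 0.24 over all transcripts.

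Leaving out single arrays changed the size of the PHO1-H1 differences, by over 1.5 times for GRMZM5G891944_T02 and GRMZM2G064657_T01, but did not turn their sign. Without Fe-deficient 2 the log2 difference of GRMZM5G891944_T02 was -0.17 in place of -0.59, that of T01 was -0.89 in place of -1.31, and that of GRMZM2G064657 was -0.25 in place of -0.52. Without Fe-deficient 1 they were -0.81, -1.79 and -0.76. Without Fe-sufficient 2 that of GRMZM2G064657 was also -0.25. Without Fe-sufficient 1, the array with the low TOM1 level, they were -0.43, -1.57 and -0.78, with limma adjusted p of 0.627, 0.199 and 0.307. In that setting the calls over all transcripts increased from 51 to 1096, and no member was among them. The log2 difference of PHT1-7 ran from -0.10 without Fe-sufficient 1 to 0.33 without Fe-sufficient 2 (limma adjusted p = 0.757), and was below 0 without Fe-deficient 1, Fe-sufficient 1 or Fe-sufficient 3. What lies behind the low levels on Fe-deficient 2 was not tested.

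**Figure D3:**
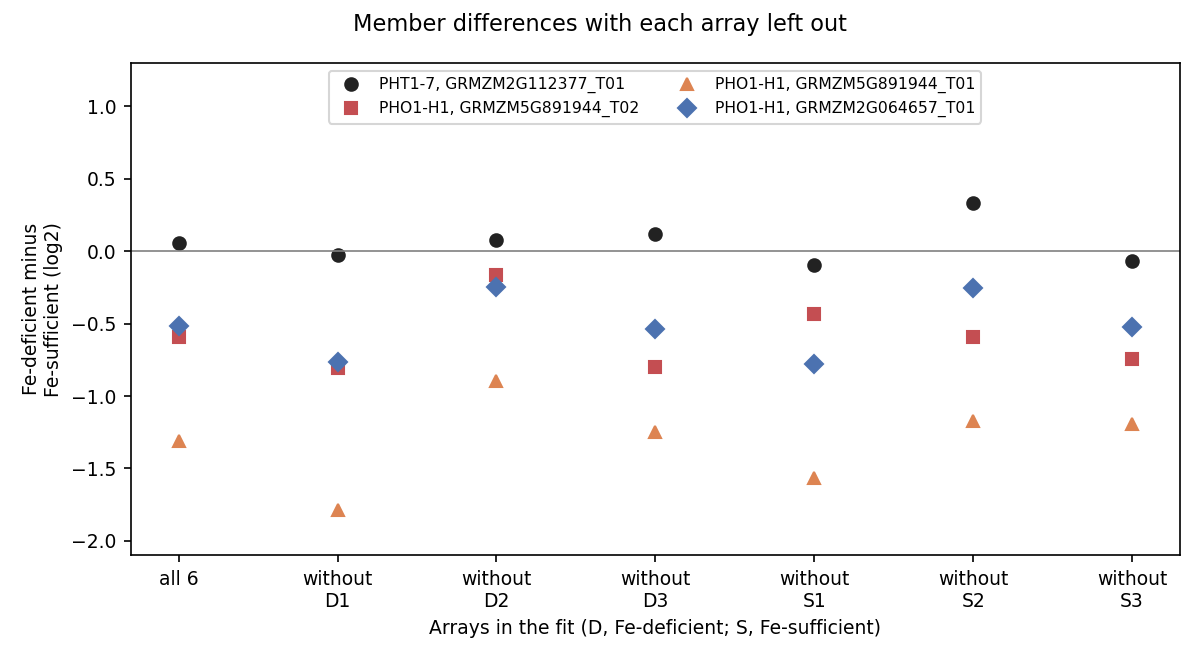
Difference of each member transcript between the groups (y axis, Fe-deficient minus Fe-sufficient, log2) with all 6 arrays and with each array left out (x axis). The PHO1-H1 transcripts stay below 0 in every setting shown, GRMZM5G891944_T02 and GRMZM2G064657_T01 come nearest to 0 without Fe-deficient 2, and PHT1-7 lies on either side of 0.

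The other genes named for phosphate transport and its control were taken from the RefSeq gene table by symbol. No PHO1-type gene was found this way, the PHO1-H1 members included, so the list holds no such gene to set beside them. PHT1-7 is listed there as pht7. Of the 11 others, 10 are named pht, of which GRMZM2G009800 and GRMZM2G041595 share 1 entry, pht12, and are counted separately. The remaining 1 is GRMZM2G006477, for which the table gives the synonym PHR1. In Arabidopsis, PHR1 is the main transcription factor of the response to phosphate starvation. None of the 11 was called in limma, 0 higher and 0 lower (background 0.079% of the brightest transcripts of all genes), with adjusted p from 0.434 to 0.978, and 1 of 11 passed with the p left unadjusted (background 4.84%). Their median log2 difference was -0.05, against 0.01 over the 39219 genes, and 7 of 11 were below 0, against 48.1%. On all 6 arrays 7 of the 11 were above background, and 2 on none, both of them listed as pht12. The 7 include pht3, which counted through at least 1 probe on each array. Its summarised level, 6.90 to 7.59, lay below background on every array.

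The 6 brightest genes of this list were pht9, PHR1, pht2, pht1, pht10 and PHT1-7 itself, and among them pht1 (GRMZM2G326707, also PT1) was the one that differed most. Its log2 levels were 10.91, 11.03 and 10.47 on the Fe-deficient arrays and 11.57, 11.57 and 11.22 on the Fe-sufficient arrays. It was the only 1 of the 11 genes whose groups did not overlap (background 17.3%), at a fold change of 0.637 (95% interval 0.461 to 0.881; limma unadjusted p = 0.0133), and it was not called (limma adjusted p = 0.434). The phosphate transporter genes pht9 (GRMZM2G070087) and pht2 (GRMZM2G154090) had fold changes of 1.15 and 0.964. That of pht10 (GRMZM2G075870) was 0.869, and that of PHR1 was 1.03 (95% interval 0.834 to 1.28). PHT1-7, at 1.04, lay inside the range of the other 5. How far the probes of these related genes also bind each other's RNA was not tested.

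**Figure D4:**
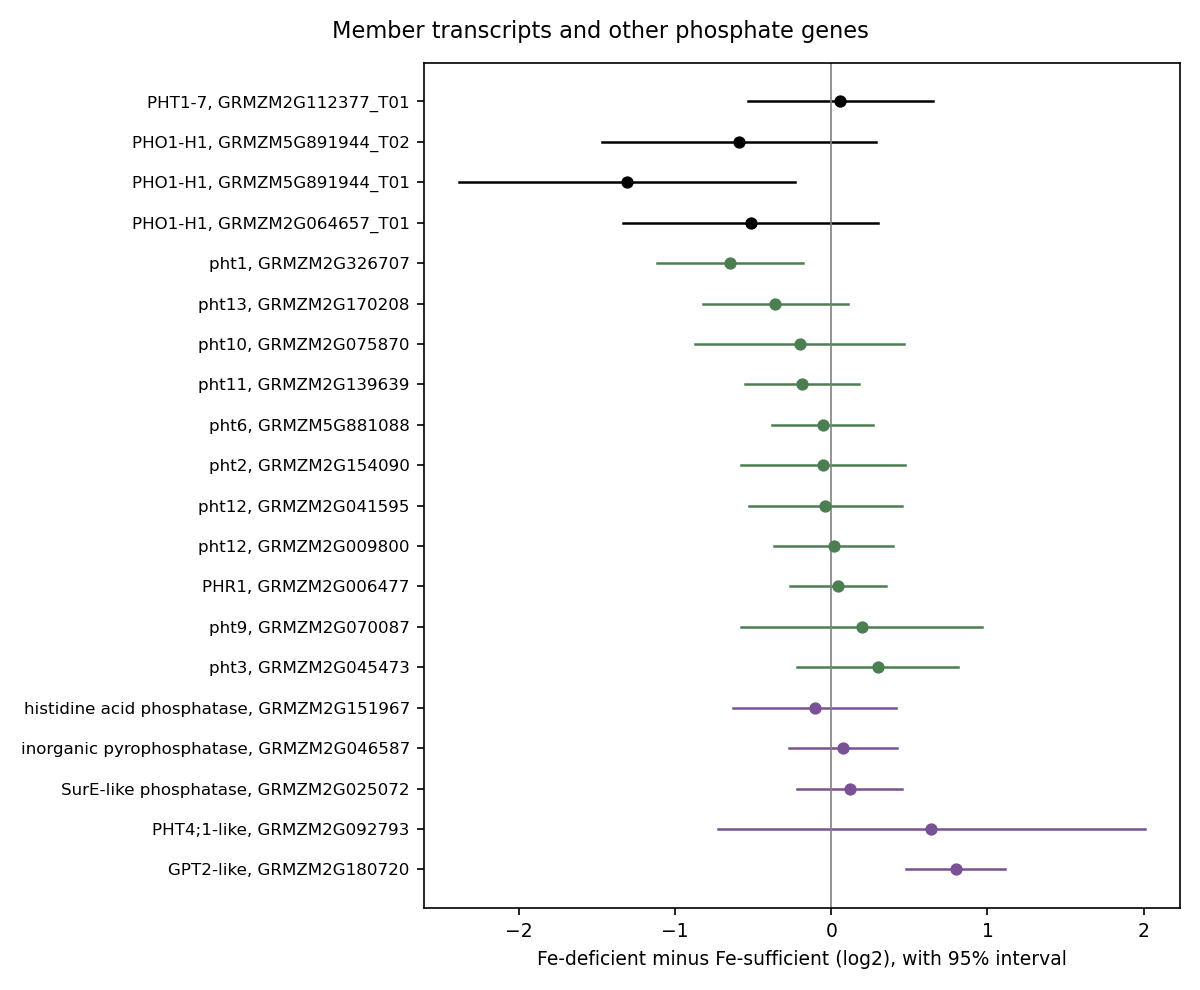
Difference between the groups (x axis, Fe-deficient minus Fe-sufficient, log2) of the 4 member transcripts (black), of the brightest transcript of the other phosphate genes found by symbol (green) and of genes annotated in the study's supplement as handling phosphate (purple). Points are limma estimates and lines their 95% intervals. No gene shown was called, and the intervals of GRMZM5G891944_T01, pht1 and the GPT2-like gene do not reach 0.

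A further 5 genes are annotated in the supplement of the study as handling phosphate. The study chose them on these samples, so their direction is no independent evidence. None of them was called in limma, 0 higher and 0 lower (background 0.079%), and 1 of 5 passed with the p left unadjusted (background 4.84%). Their median log2 difference was 0.12, against 0.01 over all genes. The gene similar to GPT2 (GRMZM2G180720), which in Arabidopsis exchanges glucose 6-phosphate for phosphate at the plastid envelope, had log2 levels of 14.43, 14.37 and 14.27 on the Fe-deficient arrays and 13.44, 13.63 and 13.61 on the Fe-sufficient arrays. The groups did not overlap (1 of 5, background 17.3%), the fold change was 1.74 (95% interval 1.39 to 2.16), and it was not called (limma adjusted p = 0.238). The gene similar to the plastid phosphate transporter PHT4;1 (GRMZM2G092793) was at 1.56 (95% interval 0.604 to 4.03). The genes of phosphate-releasing enzymes had fold changes of 1.08 for the SurE-like phosphatase (GRMZM2G025072), 0.93 for the histidine acid phosphatase (GRMZM2G151967) and 1.05 for the inorganic pyrophosphatase (GRMZM2G046587).

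Genes with the most similar pattern over the 6 arrays were sought by Pearson correlation with the brightest transcript of each member, over 14823 other genes that were above background on all arrays and had an SD of at least 0.25 log2. With so few arrays many genes correlate closely: 22 genes reached an r of 0.95 with PHT1-7, 293 with GRMZM5G891944_T02 and 67 with GRMZM2G064657_T01. Among those with an informative name, the most similar to PHT1-7 were m6 (GRMZM2G159397), eks1 (GRMZM2G049538) and ARGOS5 (GRMZM2G175995), with r from 0.932 to 0.951. For GRMZM5G891944 they were TCP4 (GRMZM2G445944), ids1 (GRMZM5G862109) and HIT2 (GRMZM2G126765), with r from 0.985 to 0.993. For GRMZM2G064657 they were EREB20 (GRMZM2G174834), lox3 (GRMZM2G109130) and PIN5a (GRMZM2G175983), with r from 0.942 to 0.982.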

How the data were processed

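For each array the deposited files give a linear intensity of every probe, read by the authors with NimbleScan and already quantile normalized (medians from 549.97 to 550.03). The deposited value table holds the same intensities, with a largest difference of 0. Background subtraction is not stated in the methods read here. After log2 transformation, the 1 to 3 probes of each transcript were summarised by median polish. Transcripts, and separately probes, were fitted across the whole array with lmFit and eBayes (limma 3.58.1, R 4.3.3) with no covariate, with Benjamini-Hochberg adjustment over 59756 transcripts or 139000 probes. A probe was above background if it exceeded the 95th percentile of the array's 1663 random-sequence probes, and a transcript if at least 1 probe did. The number of arrays limits the precision. The procedure was tested on simulated data.

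The members and lists were chosen with earlier results of these data known. Described were all member transcripts and probes, the 6 brightest genes of the symbol list, all genes of the supplement list, and the 3 most similar named genes per member. Gene names come from RefSeq, assembly Zm-B73-REFERENCE-NAM-5.0, where 18172 of 39219 genes matched 1 entry; its coordinates were not used, since the array was designed on another release. A list planned from protein similarity was void, as no protein sequences were used here, and no probe or promoter sequences were used. Alternatives were other background and between-array corrections, averaging the probes, removing dim transcripts, weighting the arrays, blocking on the replicate number, leaving out each array, and leaving out probes below background. Columns of a second signal per probe hold 0 throughout and were not used. Tables and figures were made with Python 3.11.15, pandas 2.3.3, numpy 2.4.6, scipy 1.17.1 and matplotlib 3.10.9.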

Additional observations from a re-analysis of the deposited data

How the results depend on the processing

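At an adjusted p, no member transcript, member probe or gene of the phosphate lists was called under any alternative run on it. The median log2 difference of the symbol list ran from -0.15 to 0.02. Of 56 values of the member transcripts under 14 alternatives, 51 kept their sign; the exceptions were all of PHT1-7, at -0.073 with the mean of probes, -0.17 without probes below background (added after seeing the data), and from -0.10 to 0.33 over single arrays left out. Of 110 probe values 107 kept their sign; the probe of PHT1-7 at base 1771 ran from -0.26 to 0.30 and that of GRMZM2G064657 at base 2478 from -0.16 to 0.25 over single arrays left out. The gap between the transcripts of GRMZM5G891944 stayed wider in Fe-deficient roots, by 0.45 to 1.13. Over all transcripts the count of calls was 51, 42 higher and 9 lower. It was 165, 120 higher and 45 lower, with array weights, 32 with 26 higher without probes below background, and 3190, 1515 higher and 1675 lower, at an unadjusted p. Leaving out 1 array gave 2 to 1096 calls, of which 2 to 162 were higher and 0 to 934 lower, the most without Fe-sufficient 1 and the fewest without Fe-deficient 1. The cause was not tested. Blocking on the replicate number left 0 calls in limma, 0 higher and 0 lower (3523 with the p left unadjusted), and the deviations of same-numbered arrays correlated at -0.12, -0.0082 and 0.07, so no pairing was seen. Intensities near background limit GRMZM5G891944_T01, and 3 arrays per group limit every value.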
